A study of Homo sapiens with 2 samples.

Results

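The 10 genes described here encode the enzymes that write, keep and remove DNA methylation and the core of the Polycomb repressive complex that methylates histone H3. They were chosen by name: DNMT1, DNMT3A, DNMT3B, UHRF1, TET1, TET2, TET3, EZH2, EED and SUZ12. All 10 had a row in both deposited matrices, out of 36601 gene rows in each. None of the 10 was absent from either line. The lowest total, for DNMT3B in LNCaP_C4-2B, was 93 molecules, against a floor of 3 for a gene with none.

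Single-cell RNA-Seq had been carried out on 2 human prostate cancer lines, with 1 library each. LNCaP_FGC is an androgen-sensitive prostate carcinoma line, and LNCaP_C4-2B is a castration-resistant derivative of LNCaP. Both groups were grown without further treatment in RPMI1640 medium with 10% FBS and 1% Pen/Strep. The libraries carry different batch labels, so line and batch cannot be told apart, and with 1 library per line no test between them was possible.

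DNMT3A and DNMT3B place methyl groups on cytosines of unmethylated CpG sites. UHRF1 recognises sites left methylated on a single strand after replication and recruits DNMT1, which copies the mark onto the new strand. The TET enzymes oxidise methylated cytosine, a step on the way to its removal. EZH2, EED and SUZ12 form the core of Polycomb repressive complex 2 (PRC2). EZH2 is the catalytic subunit, which methylates lysine 27 of histone H3, EED binds the finished mark, and SUZ12 is the scaffold. EZH2 is widely studied in prostate cancer for its high levels in advanced disease.

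Each matrix held 1850 cells, with no cell barcode shared between them, and the median count per cell was 18292 in LNCaP_FGC and 17566.5 in LNCaP_C4-2B. Counts are of unique molecular identifiers (UMIs), each standing for 1 captured transcript end. Levels are given as CPM, UMIs of a gene scaled to the same total in each library or group of cells. All 10 of 10 prostate luminal markers were detected in both lines. Of 13 markers of other cell types, 6 were at 0 in both, and their summed level was 11.2 CPM in LNCaP_FGC and 3.93 CPM in LNCaP_C4-2B. The share of UMIs from mitochondrial genes was 6.27% in LNCaP_FGC against 8.35% in LNCaP_C4-2B, and that from ribosomal protein genes 23.2% against 28.2%. Ranges in parentheses are 95% intervals for counting error only, and the spread between cultures is not in them.

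Promoter sequences of the members are shown so that their letters can be set beside the changes with the cell cycle. RefSeq windows on GRCh38.p14, from 250 bases before to 50 bases after a transcript start, were held for all 10 genes and numbered 22. They were searched on both strands for the E2F words TTTCCCGC, TTTCGCGC, TTTGCCGC and TTTGGCGC, the core of sites read by the E2F factors that switch on genes for DNA replication. They were also searched for TTTGAA and TTCGAA, the core of the cell cycle homology region (CHR) found in many genes of G2 and mitosis. No E2F word overlapped a CHR word in these windows. Of 35116 windows of the same length over all genes, 3.31% held an E2F word and 16.4% a CHR word. An E2F word was found in 5 of the 22 windows, which belonged to 4 genes: DNMT1, UHRF1, EZH2 and SUZ12. Each E2F word holds a CpG site, and these 5 windows had 30 to 46 CpG sites, against a median of 14 over all windows. The share of windows with an E2F word at like CpG content was not computed, so the 3.31% is not matched for it. The windows of the other 6 genes, DNMT3A, DNMT3B, TET1, TET2, TET3 and EED, held none of these E2F letters. A match is a run of letters and not a shown binding site. In the 6 stretches printed here, each running 5′ to 3′ on the gene's own strand from 200 bases before to 30 bases after the start, E2F and CHR words are in capitals. TET2 is included as a gene with CHR words only.
DNMT1, chr19:10194924-10195153: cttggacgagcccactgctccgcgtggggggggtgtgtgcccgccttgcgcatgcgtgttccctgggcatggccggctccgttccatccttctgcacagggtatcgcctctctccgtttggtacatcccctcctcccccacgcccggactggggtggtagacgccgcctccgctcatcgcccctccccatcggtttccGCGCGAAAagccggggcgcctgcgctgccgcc
UHRF1, chr19:4909301-4909530: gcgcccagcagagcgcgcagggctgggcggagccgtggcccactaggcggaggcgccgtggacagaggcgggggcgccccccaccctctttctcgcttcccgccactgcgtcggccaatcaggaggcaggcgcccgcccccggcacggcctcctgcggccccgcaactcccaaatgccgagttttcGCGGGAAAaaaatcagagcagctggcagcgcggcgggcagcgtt
UHRF1, chr19:4909944-4910173: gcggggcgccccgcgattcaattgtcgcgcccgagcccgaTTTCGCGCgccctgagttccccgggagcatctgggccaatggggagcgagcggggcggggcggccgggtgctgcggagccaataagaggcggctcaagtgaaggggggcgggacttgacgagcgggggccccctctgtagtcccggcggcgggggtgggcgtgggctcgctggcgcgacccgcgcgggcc
EZH2, chr7:148884262-148884491: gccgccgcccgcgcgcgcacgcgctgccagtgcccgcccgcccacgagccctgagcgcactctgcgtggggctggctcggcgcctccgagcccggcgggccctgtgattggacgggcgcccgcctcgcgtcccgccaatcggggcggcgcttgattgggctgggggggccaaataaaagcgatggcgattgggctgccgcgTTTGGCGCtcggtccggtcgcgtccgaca
SUZ12, chr17:31936807-31937036: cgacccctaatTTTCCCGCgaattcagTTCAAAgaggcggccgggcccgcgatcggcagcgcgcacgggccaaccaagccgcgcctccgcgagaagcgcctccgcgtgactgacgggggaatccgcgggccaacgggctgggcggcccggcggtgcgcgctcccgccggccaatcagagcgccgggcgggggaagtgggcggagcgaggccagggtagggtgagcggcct
TET2, chr4:105145675-105145904: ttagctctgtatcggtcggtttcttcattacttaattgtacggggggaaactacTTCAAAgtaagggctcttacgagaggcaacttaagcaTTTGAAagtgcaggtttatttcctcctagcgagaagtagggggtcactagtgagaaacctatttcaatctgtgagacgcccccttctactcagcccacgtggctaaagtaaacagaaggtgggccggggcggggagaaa
DNMT1 and EZH2 lie on the minus strand and the others on the plus strand. The E2F word of DNMT1 began 2 bases before the start and that of SUZ12 189 bases before it. In the UHRF1 windows it began 14 and 160 bases before the start, and in EZH2 2 bases into the transcript. Where a word lies on the opposite strand, as in DNMT1, its reverse complement is what is capitalised. CHR words were present in windows of DNMT3A, TET2 and SUZ12. The windows also differed in CpG sites: DNMT3B had 3 in its only window, TET1 between 6 and 11, and EZH2 45 and 46, against a median of 14 over all windows. That DNMT3B window, chr20:32779602-32779901, lies inside the annotated span of the gene, which begins at 32762385. The windows of DNMT1, UHRF1 and EED likewise lie inside their spans. For these genes, words and CpG sites at the outer 5′ end of the span were not searched.

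Between the lines, the members did not move as a block. By CPM, 8 of 10 were lower in LNCaP_C4-2B (7 with ribosomal protein and mitochondrial genes left out of the totals, 5 with TMM or median-of-ratios scaling), but so was the median of 17897 genes with 10 UMIs or more, which stood 1.40-fold lower there (a log2 ratio of -0.49). The median log2 ratio of the 10 members was -0.47. Set against the median gene, 5 members were below it and 5 above. TET1 and DNMT3A stood at least 1.5-fold above the median gene, as 26.0% of all genes did, and TET2 and TET3 at least 1.5-fold below it, as 26.4% of all genes did. The counts of 2 and 2 among 10 were near the share over all genes.

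**Figure D1:**
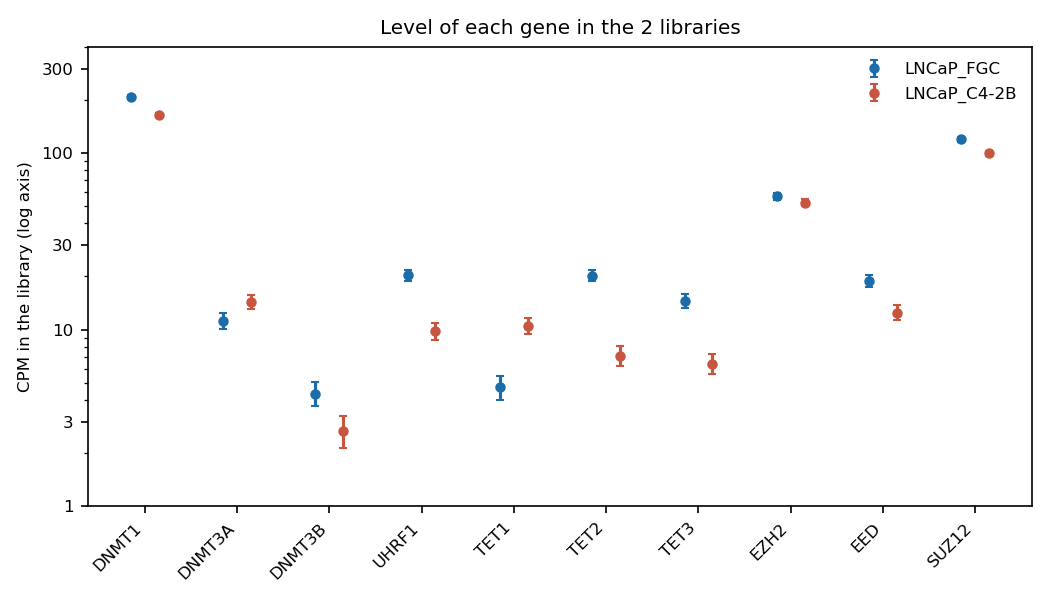
Level of each of the 10 genes in the 2 libraries, in CPM on a log axis, with 95% Poisson intervals for counting error. TET1 and DNMT3A have the higher point in LNCaP_C4-2B, and for EZH2, DNMT1 and SUZ12 the 2 points lie close together, in an order that turns with TMM or median-of-ratios scaling.

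Among the maintenance genes, DNMT1 (chr19:10133342-10231286, minus strand, GRCh38) had 7355 UMIs in LNCaP_FGC against 5776 in LNCaP_C4-2B, or 209 CPM (204 to 214) and 164 CPM (160.1 to 169). It was 1.27-fold lower (1.23 to 1.32) in LNCaP_C4-2B by total UMIs, but its ratio turned to 1.10 with TMM scaling and 1.09 with median-of-ratios scaling, both of which set the typical gene near no change. UHRF1 (chr19:4903080-4962154, plus strand) had 712 and 343 UMIs, or 20.3 CPM (18.8 to 21.8) and 9.76 CPM (8.75 to 10.8). The level of UHRF1 was 2.08-fold lower (1.82 to 2.37) in LNCaP_C4-2B and 1.48-fold below the median gene, just inside the 1.5-fold line. Per DNMT1 UMI there were 0.0968 (0.0895 to 0.105) UHRF1 UMIs in LNCaP_FGC and 0.0594 (0.0531 to 0.0662) in LNCaP_C4-2B, a ratio that does not depend on how the libraries are scaled. DNMT1 overlaps S1PR2 on the same strand, so reads of the shared stretch are uncertain.

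The de novo enzymes went in opposite directions. DNMT3A (chr2:25227855-25342590, minus strand) had 394 UMIs in LNCaP_FGC against 505 in LNCaP_C4-2B, which is 11.2 CPM (10.1 to 12.4) and 14.4 CPM (13.1 to 15.7), 1.28-fold higher (1.12 to 1.47). DNMT3B (chr20:32762385-32809359, plus strand) had 152 and 93 UMIs, or 4.32 CPM (3.66 to 5.07) and 2.65 CPM (2.14 to 3.24), 1.63-fold lower (1.25 to 2.14). Against the median gene, DNMT3A was 1.80-fold above and DNMT3B 1.17-fold below. The number of DNMT3A UMIs per DNMT3B UMI was 2.59 (2.14 to 3.15) in LNCaP_FGC and 5.43 (4.34 to 6.85) in LNCaP_C4-2B. DNMT3L, the catalytically inactive partner of the de novo enzymes in germ cells, had no UMI in LNCaP_FGC and 1 UMI in LNCaP_C4-2B, both under the floor.

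By total UMIs the TET enzymes had the 3 largest ratios between the lines. TET1 (chr10:68560337-68694487, plus strand) had 165 UMIs in LNCaP_FGC against 367 in LNCaP_C4-2B, or 4.69 CPM (4.01 to 5.47) and 10.4 CPM (9.40 to 11.6), 2.22-fold higher (1.85 to 2.69). TET2 (chr4:105145875-105279816, plus strand) had 711 and 249 UMIs, or 20.2 CPM (18.8 to 21.8) and 7.08 CPM (6.23 to 8.02), 2.86-fold lower (2.47 to 3.31). An antisense gene, TET2-AS1, overlaps TET2 and had 0 UMIs in both libraries. TET3 (chr2:73984910-74108176, plus strand) had 510 and 225 UMIs, or 14.5 CPM (13.3 to 15.8) and 6.40 CPM (5.59 to 7.29), 2.27-fold lower (1.93 to 2.66). These directions were the same under all 3 other scalings, with ratios of 2.47 to 3.11 for TET1, 0.389 to 0.490 for TET2 and 0.491 to 0.617 for TET3.

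Summed over TET1, TET2 and TET3, LNCaP_FGC had 39.4 CPM and LNCaP_C4-2B 23.9 CPM, a 1.65-fold lower (1.51 to 1.80) sum that was 1.18-fold lower with TMM scaling. The make-up of that sum differed. TET2 gave 51.3% of TET UMIs in LNCaP_FGC and 29.6% in LNCaP_C4-2B, while TET1 gave 11.9% and 43.6% and TET3 36.8% and 26.8%. There were 0.232 (0.195 to 0.275) TET1 UMIs per TET2 UMI in LNCaP_FGC and 1.47 (1.25 to 1.74) in LNCaP_C4-2B. Capture can differ between genes, so shares of UMIs are set side by side only between the lines and do not give amounts of enzyme.

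**Figure D2:**
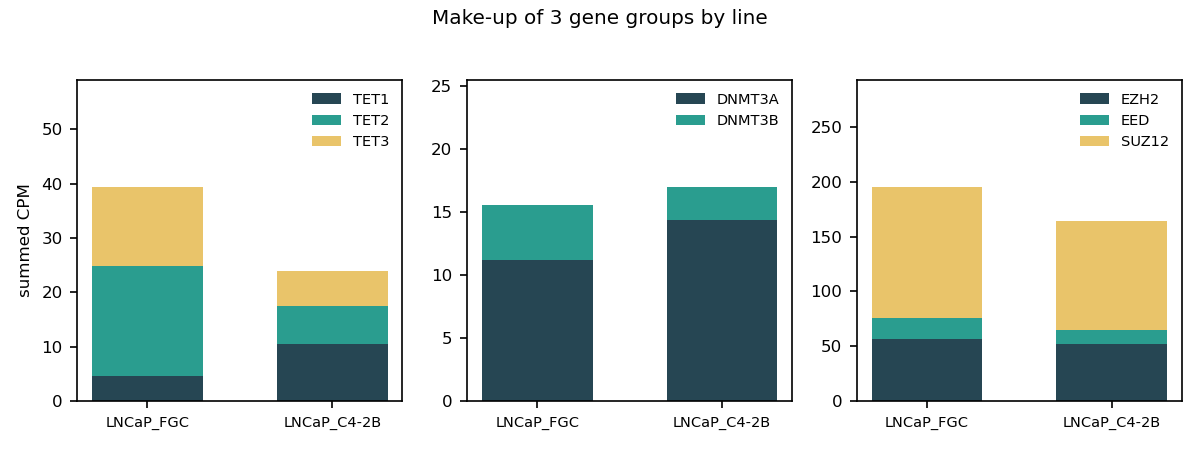
Summed CPM of the TET enzymes, the de novo methyltransferases and the PRC2 core in the 2 libraries, as stacked bars with 1 colour per gene. TET1 gives 11.9% of TET UMIs in LNCaP_FGC and 43.6% in LNCaP_C4-2B. The PRC2 bar is lower in LNCaP_C4-2B by total UMIs but turns with TMM or median-of-ratios scaling.

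The PRC2 core differed less. EZH2 (chr7:148807257-148884321, minus strand) had 2000 UMIs in LNCaP_FGC against 1840 in LNCaP_C4-2B, or 56.9 and 52.3 CPM. It was 1.09-fold lower (1.02 to 1.16) in LNCaP_C4-2B by total UMIs, but its ratio was 1.02 without ribosomal protein and mitochondrial genes in the totals, 1.29 with TMM and 1.27 with median-of-ratios scaling. SUZ12 (chr17:31937007-32001038, plus strand) had 4214 and 3507 UMIs, or 119.9 CPM (116 to 124) and 99.8 CPM (96.5 to 103). It was 1.20-fold lower (1.15 to 1.26) by total UMIs, with a ratio of 1.16 by TMM and 1.15 by median-of-ratios scaling. SUZ12 has a near-identical pseudogene that has no row of its own, so its count is uncertain to that extent. EED (chr11:86201212-86278813, plus strand) had 661 and 439 UMIs, or 18.8 CPM (17.4 to 20.3) and 12.5 CPM (11.3 to 13.7), 1.51-fold lower (1.33 to 1.70). Against the median gene, EZH2 stood 1.29-fold and SUZ12 1.17-fold above, and EED 1.07-fold below. Summed over the core, the level was 196 CPM in LNCaP_FGC and 165 CPM in LNCaP_C4-2B, 1.19-fold lower by total UMIs but at a ratio of 1.18 with TMM scaling.

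Long genes stood lower in LNCaP_C4-2B than short ones, and the members span 47.0 to 134 kb. The median gene was 1.29-fold lower among genes shorter than that range, 1.49-fold lower among the 3590 genes within it and 1.59-fold lower among longer ones, counting the 80.4% of genes whose symbol had an annotated span. Against the median of the genes within the range, an alternative chosen after seeing the data, TET1 and DNMT3A again stood at least 1.5-fold above (21.1% of those genes did) and TET2 and TET3 at least 1.5-fold below (22.8% did).

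Dependence on proliferation was examined first by cell cycle phase. Phases were called in each library from 40 S and 54 G2M genes, from which UHRF1, HELLS and CDCA7 had been removed, so that no member entered the calls. In LNCaP_FGC 43.5% of cells were called G1, 25.5% S and 31.0% G2M, and in LNCaP_C4-2B 49.1%, 20.7% and 30.2%. Cells called S had more UMIs (medians of 19464 and 20890) than cells called G1 (17532 and 15833), a difference that CPM scales away. In both lines the members fell into a group that was higher in S and G2M and a group that was not. At least 1.5-fold higher in S than in G1 were 5 of 10 in LNCaP_FGC, where 13.5% of 16428 genes passed that line, and the same 5 in LNCaP_C4-2B, where 13.6% of 15231 did. They were DNMT1, UHRF1, EZH2, EED and SUZ12. No member was at least 1.5-fold lower in S, against 10.7% and 11.5% of genes. In G2M, 6 of 10 were at least 1.5-fold higher than in G1 in LNCaP_FGC (14.2% of genes) and 5 in LNCaP_C4-2B (14.0%). DNMT3A was lower by that much in LNCaP_FGC (12.0% of genes) and no member was in LNCaP_C4-2B (10.0%).

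**Figure D3:**
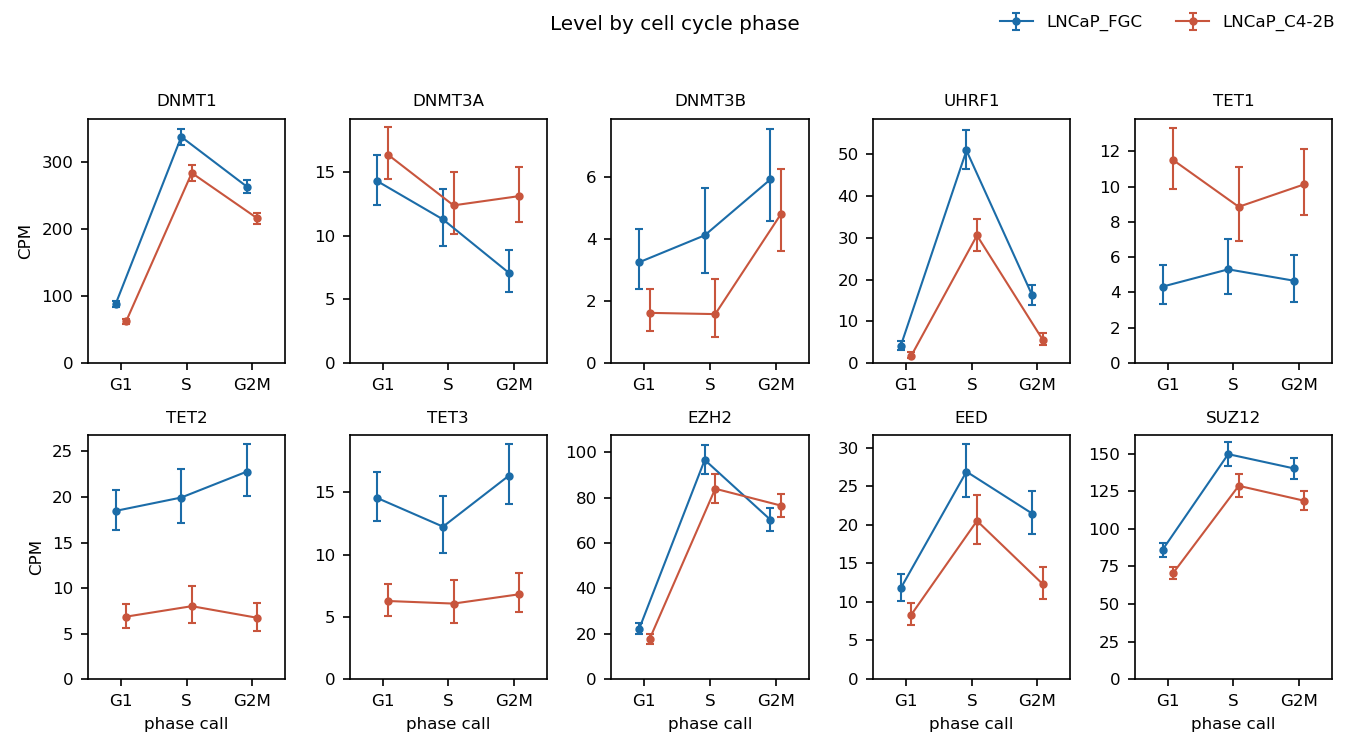
CPM of each gene in cells called G1, S and G2M, for the 2 libraries, with 95% Poisson intervals for counting error and a linear axis from 0 in each panel. DNMT1, UHRF1, EZH2, EED and SUZ12 are higher in S than in G1 in both lines, while TET2 and TET3 run nearly flat, lower in LNCaP_C4-2B, and TET1 nearly flat and higher there.

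UHRF1 had the steepest change with phase. In LNCaP_FGC it stood at 4.13 CPM (3.16 to 5.30) in G1 cells, 50.9 CPM (46.4 to 55.8) in S cells and 16.2 CPM (14.0 to 18.8) in G2M cells. In LNCaP_C4-2B the same phases had 1.75 CPM (1.15 to 2.54), 30.6 CPM (26.9 to 34.6) and 5.59 CPM (4.31 to 7.14). The S level was 12.3-fold (9.44 to 16.4) that of G1 in LNCaP_FGC, and in LNCaP_C4-2B it was 17.5-fold (11.7 to 27.1), over a G1 level that rests on 27 UMIs. With cells thinned to a common depth, the ratio was 11.6 in LNCaP_FGC and 27.7 in LNCaP_C4-2B. Of the 6 combinations of line and phase, only the G2M level of LNCaP_C4-2B and the G1 level of LNCaP_FGC had overlapping intervals among neighbours in the order. UHRF2, a paralog with a related structure, had S over G1 of 1.12 (0.970 to 1.30) and 1.09 (0.839 to 1.40). There were 0.136 UHRF1 UMIs per UHRF2 UMI in G1 and 1.49 in S in LNCaP_FGC, and 0.158 and 2.55 in LNCaP_C4-2B.

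DNMT1 was high in S and stayed high in G2M. Its level in LNCaP_FGC was 87.8 CPM (83.1 to 92.7) in G1 cells, 338 CPM (326 to 350.2) in S cells and 264 CPM (254 to 273) in G2M cells. In LNCaP_C4-2B it was 62.1 CPM (58.2 to 66.2), 284 CPM (273 to 296) and 216 CPM (208 to 225). The S level was 3.85-fold (3.61 to 4.11) that of G1 in the first line and 4.58-fold (4.24 to 4.94) in the second. That ratio was larger in LNCaP_C4-2B by a factor of 1.19 (1.08 to 1.31). A DNMT1 UMI was found, at a common depth of 11901 UMIs per cell, in 60.9% of G1 cells and 94.8% of S cells of LNCaP_FGC, and in 48.9% and 95.1% of LNCaP_C4-2B.

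EZH2 followed DNMT1 in form but not in every detail. It was at 22.0 CPM (19.7 to 24.5) in G1 cells, 96.7 CPM (90.4 to 103) in S cells and 70.3 CPM (65.4 to 75.4) in G2M cells in LNCaP_FGC. In LNCaP_C4-2B it was at 17.6 CPM (15.6 to 19.8), 84.0 CPM (77.8 to 90.4) and 76.5 CPM (71.5 to 81.8). S over G1 was 4.40 (3.87 to 5.01) and 4.77 (4.14 to 5.51), and G2M over G1 was 3.20 and 4.35. The G2M ratio was larger in LNCaP_C4-2B by a factor of 1.36 (1.13 to 1.64), whereas the S ratios differed by a factor of 1.09 (0.898 to 1.31), an interval that includes 1. EZH1, the paralog that can replace EZH2 in the complex, had S over G1 of 0.905 (0.732 to 1.11) and 1.03 (0.829 to 1.26). EZH2 had 1.27 (1.08 to 1.51) UMIs per EZH1 UMI in G1 and 6.19 (5.19 to 7.44) in S in LNCaP_FGC, and 1.05 (0.886 to 1.25) and 4.91 (4.09 to 5.92) in LNCaP_C4-2B.

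The other PRC2 core genes rose less. EED was at 11.8 CPM in G1, 26.9 CPM in S and 21.4 CPM in G2M in LNCaP_FGC and at 8.34, 20.5 and 12.3 CPM in LNCaP_C4-2B, with S over G1 of 2.28 (1.87 to 2.79) and 2.46 (1.94 to 3.11). SUZ12 was at 86.0, 149.7 and 140.2 CPM in LNCaP_FGC and 70.4, 129 and 119 CPM in LNCaP_C4-2B, with S over G1 of 1.74 (1.61 to 1.88) and 1.83 (1.68 to 1.99). In LNCaP_C4-2B, G2M over G1 for EED was 1.48 (1.15 to 1.89), just under the 1.5-fold line that it passed in LNCaP_FGC at 1.82 (1.49 to 2.23). The catalytic subunit changed by a larger factor between G1 and S than its scaffold in both lines, with intervals that did not overlap.

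DNMT3B was higher in G2M than in G1, with no difference between S and G1 detectable at its depth. Its level was 3.25 CPM (2.39 to 4.31) in G1 cells, 4.12 CPM (2.91 to 5.65) in S cells and 5.92 CPM (4.58 to 7.54) in G2M cells of LNCaP_FGC. In LNCaP_C4-2B it was 1.62 CPM (1.05 to 2.39), 1.58 CPM (0.840 to 2.70) and 4.80 CPM (3.62 to 6.25). G2M over G1 was 1.82 (1.24 to 2.70) and 2.97 (1.82 to 4.98), and S over G1 was 1.27 (0.806 to 1.98) and 0.975 (0.458 to 1.98). Counts were small, with 13 UMIs in S cells and 25 in G1 cells of LNCaP_C4-2B.

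DNMT3A went the other way. In LNCaP_FGC its G1 level was 14.3 CPM (12.4 to 16.3), its S level 11.3 CPM (9.21 to 13.7) and its G2M level 7.09 CPM (5.61 to 8.84), 2.01-fold lower (1.55 to 2.64) in G2M than in G1. In LNCaP_C4-2B it was at 16.4 CPM (14.4 to 18.5), 12.4 CPM (10.1 to 15.0) and 13.1 CPM (11.1 to 15.4), 1.25-fold lower (1.02 to 1.54) in G2M. The G2M ratio was higher in LNCaP_C4-2B by a factor of 1.61 (1.16 to 2.24). UMIs of DNMT3A per DNMT3B UMI went from 4.40 in G1 to 1.20 in G2M of LNCaP_FGC and from 10.1 to 2.73 in LNCaP_C4-2B.

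The TET genes showed little change with phase. TET2 was at 18.5 CPM in G1, 19.9 CPM in S and 22.8 CPM in G2M of LNCaP_FGC, and at 6.86, 8.01 and 6.73 CPM in LNCaP_C4-2B. TET3 was at 14.5, 12.2 and 16.3 CPM in LNCaP_FGC and at 6.27, 6.07 and 6.81 CPM in LNCaP_C4-2B. For both genes, the 3 levels of LNCaP_FGC all lay above the 3 of LNCaP_C4-2B, and neighbouring phases within a line had overlapping intervals. TET1 was at 4.33, 5.31 and 4.67 CPM in LNCaP_FGC and at 11.5, 8.86 and 10.1 CPM in LNCaP_C4-2B. S over G1 of the TET genes lay between 0.769 and 1.23, and all 6 intervals included 1. G2M over G1 did so too except for TET2 in LNCaP_FGC, at 1.23 (1.04 to 1.47). S over G1 of TET1 was 1.23 in LNCaP_FGC and 0.769 in LNCaP_C4-2B. The second was the first times a factor of 0.627 (0.396 to 0.995), an interval that lies just under 1.

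The differences between the lines were then taken within each phase, since LNCaP_C4-2B had fewer cells called S. The TET differences were present in every phase. TET2 was 2.69-fold (2.15 to 3.40) lower in LNCaP_C4-2B among G1 cells, 2.49-fold (1.87 to 3.35) among S cells and 3.39-fold (2.62 to 4.43) among G2M cells, and TET3 2.32-fold, 2.02-fold and 2.40-fold lower. TET1 was 2.66-fold (1.99 to 3.60) higher among G1 cells, 1.67-fold (1.15 to 2.45) among S cells and 2.17-fold (1.55 to 3.07) among G2M cells. UHRF1 was also lower in every phase by total UMIs, by which the median gene over all cells was 1.40-fold lower. It was 2.36-fold (1.48 to 3.87) lower in G1 cells, 1.67-fold (1.43 to 1.95) in S cells and 2.91-fold (2.17 to 3.93) in G2M cells. With both libraries scored together, its ratio in S cells was 0.697, near that of the median gene, while its ratios in G1 and G2M cells stayed well below. In S cells, its distance from the median gene thus depended on how phases were called.

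**Figure D4:**
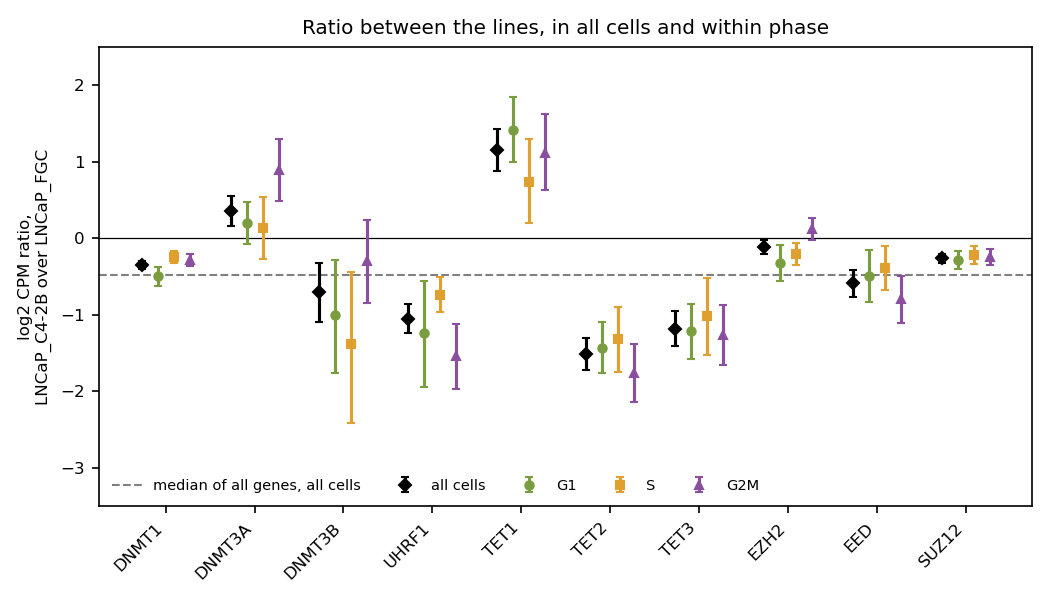
The log2 CPM ratio of LNCaP_C4-2B over LNCaP_FGC for each gene, over all cells and within each phase, with 95% intervals for counting error. The dashed line marks the median of all genes at -0.49. All ratios of TET2 and TET3 lie below the dashed line and those of TET1 above 0. The DNMT3A intervals all lie above the dashed line but clear 0 over all cells and in G2M only.

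For the remaining members the phases differed more. By total UMIs DNMT3A was 1.85-fold (1.40 to 2.46) higher in LNCaP_C4-2B in G2M. Its ratios of 1.15 (0.951 to 1.38) in G1 and 1.10 (0.827 to 1.46) in S had intervals that included 1. All of these DNMT3A intervals lay above the ratio of the median gene in the same phase. DNMT3B was 2.01-fold (1.21 to 3.40) lower in G1 and 2.61-fold (1.36 to 5.34) lower in S, with a ratio of 0.811 (0.557 to 1.18) in G2M. The ratio of EZH2 by total UMIs was 0.800 (0.679 to 0.943) in G1 cells, 0.868 (0.785 to 0.960) in S cells and 1.09 (0.988 to 1.20) in G2M cells. In each phase it lay above that of the median gene, which stood at log2 ratios between -0.46 and -0.43. In G1, however, the interval of EZH2 included the ratio of the median gene. EED was 1.41-fold, 1.31-fold and 1.74-fold lower in G1, S and G2M by total UMIs, which put it at log2 values of -0.03, 0.05 and -0.37 relative to the median gene.

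As a graded measure, cells thinned to 11901 UMIs each (1623 of LNCaP_FGC and 1665 of LNCaP_C4-2B) were ordered by their summed UMIs of the phase genes and divided into 4 groups of about equal size, numbered from the least to the most. Group 1 held 9 to 32 such UMIs per cell in LNCaP_FGC and 8 to 32 in LNCaP_C4-2B, and all its cells were called G1. Between groups 4 and 1, 6 of 10 members were at least 1.5-fold higher in each line, against 19.2% of genes in LNCaP_FGC and 20.6% in LNCaP_C4-2B. At least 1.5-fold lower was DNMT3A in LNCaP_FGC, against 13.6% of genes, and no member in LNCaP_C4-2B, against 12.7%. EZH2 went from 16.2 CPM in group 1 through 36.6 and 70.9 to 95.4 CPM in group 4 of LNCaP_FGC, and from 15.2 through 27.7 and 68.4 to 94.8 CPM in LNCaP_C4-2B. Group 4 over group 1 for EZH2 was thus 5.91 (4.65 to 7.59) and 6.25 (4.89 to 8.07). DNMT1 went from 64.8 to 363 CPM in LNCaP_FGC and from 38.3 to 260.2 CPM in LNCaP_C4-2B, with ratios of 5.60 (4.97 to 6.33) and 6.79 (5.83 to 7.94).

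UHRF1 did not follow the gradient to its end. It was at 3.64, 12.0, 41.1 and 25.9 CPM in groups 1 to 4 of LNCaP_FGC and at 1.20, 4.04, 19.9 and 8.93 CPM in LNCaP_C4-2B. Group 3, with 57.1% and 54.6% of cells called S, held the highest level in both lines, and group 4 was mostly cells called G2M, with 74.3% and 82.6%. SUZ12 went from 84.6 to 162 CPM and from 63.5 to 133 CPM, and EED from 11.7 to 25.7 CPM and from 5.79 to 15.0 CPM. For DNMT3B the ratio was 1.59 (0.879 to 2.95) in LNCaP_FGC, an interval that includes 1, and 3.56 (1.58 to 9.04) in LNCaP_C4-2B, where group 1 held 8 UMIs. DNMT3A was lower in group 4 of LNCaP_FGC, at 8.71 against 16.2 CPM, by 1.85-fold (1.26 to 2.76), and stood at 17.2 and 14.8 CPM in groups 1 and 4 of LNCaP_C4-2B. The TET genes had ratios between 0.856 and 1.24, each with an interval that included 1.

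With the 4 groups cut at the same limits over both libraries, the lines were set side by side within the same ranges of phase-gene UMIs. Group 4 has no upper limit, and the mix of phases within a group was not matched. In the groups cut per library, group 4 had a median of 200 such UMIs in LNCaP_FGC and 166 in LNCaP_C4-2B. The cells called S in it were 25.7% and 17.4%. In group 1 TET2 was 2.62-fold (1.79 to 3.90) lower in LNCaP_C4-2B and TET1 2.96-fold (1.74 to 5.28) higher. In group 4 TET2 was 3.16-fold (2.14 to 4.77) lower, TET1 2.23-fold (1.32 to 3.86) higher and UHRF1 3.17-fold (2.19 to 4.70) lower. In groups 2 and 3 TET2 was 2.77-fold (1.86 to 4.21) and 2.76-fold (1.89 to 4.08) lower and UHRF1 2.25-fold (1.33 to 3.90) and 2.19-fold (1.72 to 2.82) lower. TET1 had ratios of 1.56 (0.984 to 2.52) and 1.48 (0.920 to 2.41) there, so no difference by total UMIs was detectable for it in those 2 groups. Both intervals lay above the ratio of the median gene over all cells, which was 1.40-fold lower in LNCaP_C4-2B. EZH2 had a ratio of 0.939 (0.677 to 1.30) in group 1, 0.835 (0.663 to 1.05) in group 2, 1.07 (0.915 to 1.24) in group 3 and 1.01 (0.881 to 1.15) in group 4, so no difference by total UMIs was detectable for it at this depth.

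To place the members along the cycle, the cells of each library were ordered by the angle of their S and G2M scores and divided into 8 groups. UHRF1 was highest in group 5, in which all cells were called S, at 67.2 CPM in LNCaP_FGC and 35.2 CPM in LNCaP_C4-2B. DNMT1 was highest in group 6, where S and G2M calls were mixed, at 381 and 314 CPM. DNMT3B was highest in group 7, in which all cells were called G2M, at 8.00 and 5.79 CPM. EZH2 was highest in group 5 of LNCaP_FGC at 106 CPM, next to 104 CPM in group 6, and in group 6 of LNCaP_C4-2B at 93.0 CPM. DNMT3A had its lowest level in group 7 of LNCaP_FGC, at 4.22 CPM. The order UHRF1, then DNMT1, then DNMT3B was the same in both libraries, as a description of 16 groups in which counts of DNMT3B are small.

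**Figure D5:**
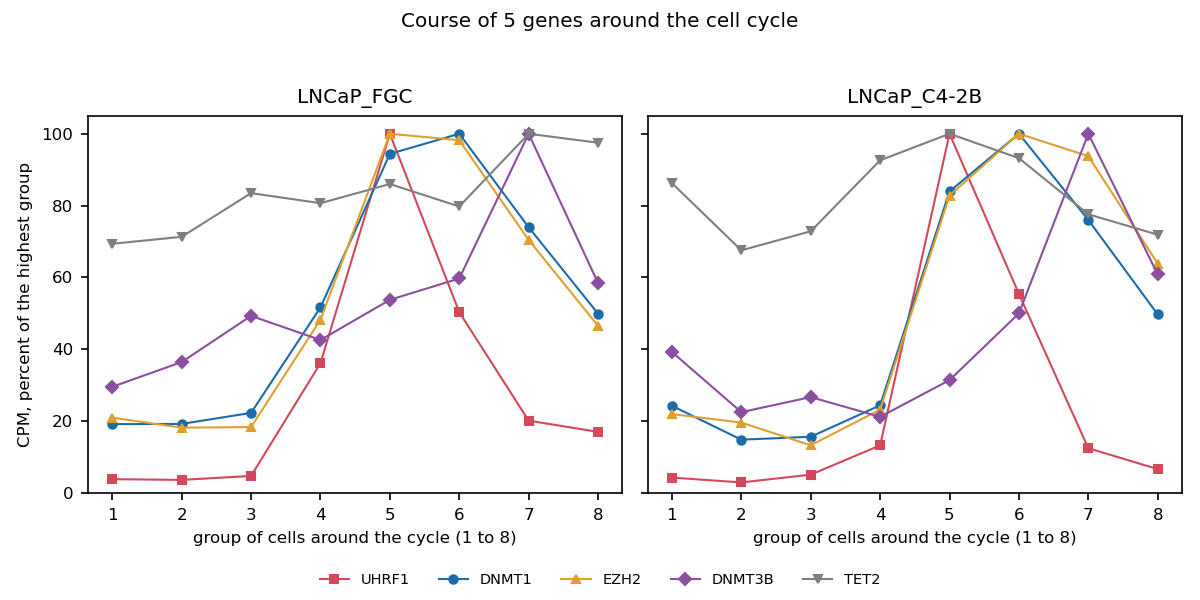
CPM of UHRF1, DNMT1, EZH2, DNMT3B and TET2 in 8 groups of cells ordered around the cell cycle in each library, as a percentage of the gene's highest group. UHRF1 peaks in group 5, DNMT1 in group 6 and DNMT3B in group 7 in both lines, while the TET2 line stays high throughout.

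Over these 16 groups, the genes whose course was most like that of a member were sought among 5078 genes, by Pearson's r of log2(CPM + 1). For DNMT1 they were CDK2 (0.991), a kinase that drives S phase, and C21orf58 (0.986). For UHRF1 they were SLBP (0.991), the histone mRNA binding protein, which was itself among the phase genes, and FAM111B (0.976). For EZH2 they were C21orf58 (0.981) and DNMT1 (0.979). For SUZ12 they were NUP205 (0.975), a nuclear pore subunit, and PARP2 (0.975), a sensor of DNA damage. TET2, which like UHRF1 reached 20 CPM in LNCaP_FGC only, gave FTSJ3 (0.990) and PSME3 (0.988). Both were also lower in LNCaP_C4-2B, FTSJ3 at 66.7 and 36.2 CPM and PSME3 at 99.4 and 37.8 CPM, so r over both lines holds that difference and does not show a like course around the cycle. FAM111B was likewise lower in LNCaP_C4-2B, at 82.7 and 26.6 CPM, as UHRF1 was, so its r holds a difference between the lines too. The groups share a library and its phase scores, so these values are a description.

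The spread among cells of DNMT1, UHRF1 and EZH2 was nearer to counting noise in G1, where their counts were lowest, than in S. At the common depth, the variance of UMIs per cell over their mean was 2.22 for DNMT1 in LNCaP_FGC over all cells, 1.29 within G1, 1.62 within S and 1.46 within G2M, where 1 is the value for counting noise alone. For UHRF1 it was 1.47 in LNCaP_FGC and 1.36 in LNCaP_C4-2B, and 1.05 and 0.989 within G1, and 1.31 and 1.20 within S. For EZH2 it was 1.39 and 1.39, and 1.05 and 1.09 within G1, and 1.25 and 1.34 within S. For TET2 it was 0.996 and 1.05 over all cells, near counting noise. A UHRF1 UMI was found in 42.1% (37.4% to 47.0%) of S cells and 5.06% (3.57% to 6.94%) of G1 cells of LNCaP_FGC, and in 26.6% (22.2% to 31.5%) and 1.27% (0.613% to 2.33%) of LNCaP_C4-2B. Over all cells as deposited, a DNMT1 UMI was found in 86.3% of LNCaP_FGC and 76.6% of LNCaP_C4-2B cells and a UHRF1 UMI in 25.0% and 12.5%. A TET2 UMI was found in 22.4% (20.4% to 24.5%) of LNCaP_FGC cells and 8.35% (7.06% to 9.78%) of LNCaP_C4-2B cells at the common depth, and in 31.0% and 12.1% of cells as deposited. Each library held 1 cell line, so no cell type without these genes was at hand to give the share that free RNA alone would leave.

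LNCaP_FGC holds cells with and without transcripts of ETV1, an ETS transcription factor gene that is rearranged in this line. At the common depth 618 cells had 0 ETV1 UMIs and 729 had at least 2. Of cells without ETV1 UMIs 40.8% (36.9% to 44.8%) were called G1, against 47.1% (43.4% to 50.7%) of cells with them, and the mean summed UMIs of the phase genes were 111 and 93.6 per cell. DNMT3A was at 15.6 CPM in cells without ETV1 UMIs and 8.99 CPM in cells with them, a ratio of 1.74 (1.29 to 2.35). TET1 was at 6.39 and 3.92 CPM, a ratio of 1.63 (1.03 to 2.61). These 2 members were past 1.5-fold in this direction, against 10.9% of genes, and no member was at least 1.5-fold lower, against 6.18%. UHRF1 stood at 24.3 and 16.6 CPM, a ratio of 1.47 (1.17 to 1.84), and DNMT1 at 228 and 183 CPM, a ratio of 1.25 (1.17 to 1.34). With a split at 0 against at least 1 ETV1 UMI, DNMT3A was at a ratio of 1.57 (1.21 to 2.05), but TET1 was at 1.39 (0.921 to 2.09), under the 1.5-fold line and with an interval that includes 1. Within phases, DNMT3A was at 1.78 (1.19 to 2.69) among G1 cells, 1.49 (0.823 to 2.76) among S cells and 2.33 (1.14 to 5.04) among G2M cells. The ratio of TET1 was 2.61 (1.25 to 5.75) among G1 cells, from 23 and 12 UMIs, but 0.749 (0.283 to 1.89) among S cells and 1.72 (0.706 to 4.46) among G2M cells, and both of the latter intervals include 1. DNMT1 was at 0.970 (0.819 to 1.15) within G1, 1.30 (1.17 to 1.45) within S and 1.14 (1.03 to 1.27) within G2M. UHRF1 was at 0.931 (0.423 to 1.99), 1.58 (1.19 to 2.11) and 1.09 (0.687 to 1.72) in the same phases, so both genes were higher without ETV1 UMIs among S cells. KLK3, the luminal gene for prostate-specific antigen, moved with the split far more, at 227 CPM in cells without ETV1 UMIs and 1311 CPM in cells with them. It was lower without them in each phase, by 5.62-fold in G1, 6.37-fold in S and 5.05-fold in G2M, and its part in the members' ratios was not tested. TET2, at 0.968 (0.780 to 1.20), and EZH2, at 1.11 (0.965 to 1.27), had intervals that included 1 over all cells. Set against the LNCaP_FGC cells without ETV1 UMIs, LNCaP_C4-2B had DNMT3A at a ratio of 0.939 (0.754 to 1.18) and TET1 at 1.62 (1.17 to 2.27), with TET2 2.89-fold lower (2.30 to 3.64). These 3 values are by total UMIs, by which the median gene over all cells was 1.40-fold lower in LNCaP_C4-2B.

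The other genes of these pathways were taken from 6 lists with 72 genes. The median log2 ratio of each list between the lines was taken relative to the median gene. It was -0.25 for partners of the methyltransferases, -0.43 for readers of methylated DNA and 0.25 for oxidation and demethylation. For other PRC2 subunits it was 0.43, for PRC1 -0.07 and for genes listed as opposing Polycomb -0.16. Of 11 measured partners of the methyltransferases, 1 stood at least 1.5-fold above the median gene between the lines (26.0% of all genes) and 4 below it (26.4%), and 4 were at least 1.5-fold higher in S than in G1 in each line (13.5% of genes in LNCaP_FGC and 13.6% in LNCaP_C4-2B). CDCA7L, a relative of the remodeller cofactor CDCA7, was at 18.7 CPM in LNCaP_FGC and 54.1 CPM in LNCaP_C4-2B, 2.89-fold higher (2.64 to 3.16). CDCA7 itself was at 26.2 and 10.1 CPM, 2.58-fold lower (2.28 to 2.93). HELLS, the chromatin remodeller that CDCA7 recruits and that is needed for DNA methylation of repeats, was at 103 and 49.1 CPM, 2.10-fold lower (1.98 to 2.22), and its S over G1 was 7.67 and 8.79. MAT2B, the regulatory subunit of the enzyme that makes the methyl donor, was at 29.4 and 9.08 CPM, 3.24-fold lower (2.86 to 3.69).

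Among 8 readers of methylated DNA, 1 stood above the median gene by that much and 1 below it, where 26.0% and 26.4% of all genes did. ZBTB38, a zinc finger reader, was at 29.0 CPM in LNCaP_FGC and 32.2 CPM in LNCaP_C4-2B, 1.11-fold higher (1.02 to 1.21). MBD4, a glycosylase that repairs deaminated methylcytosine, was the 1 reader past 1.5-fold in S, with 1.77 (1.58 to 1.98) and 1.80 (1.58 to 2.05). Of 8 measured genes of oxidation and demethylation, 3 stood above the median gene and 0 below, against the same shares of all genes, and 0 were at least 1.5-fold higher in S in either line. IDH2, a mitochondrial enzyme that makes the TET cofactor 2-oxoglutarate, was at 111 and 153 CPM, 1.37-fold higher (1.31 to 1.43), and TDG, which excises the oxidised base, was at 132 and 92.9 CPM, at a log2 value of -0.02 relative to the median gene.

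Of 10 other PRC2 subunits measured, 3 stood above the median gene (26.0% of all genes) and 1 below it (26.4%), and 2 in LNCaP_FGC (13.5% of genes) and 4 in LNCaP_C4-2B (13.6%) were at least 1.5-fold higher in S. RBBP4, a histone-binding subunit shared with other chromatin complexes, was at 490.2 CPM in LNCaP_FGC and 144 CPM in LNCaP_C4-2B, 3.40-fold lower (3.29 to 3.51). Its paralog RBBP7 was at 93.9 and 110.2 CPM, 1.17-fold higher (1.12 to 1.23). In the complex PRC1, which ubiquitinates histone H2A, 0 of 22 genes stood above the median gene by 1.5-fold and 4 stood below, and 2 in LNCaP_FGC and 3 in LNCaP_C4-2B were at least 1.5-fold higher in S. These counts were no higher than the shares over all genes would give for 22 genes, to the nearest whole gene. CBX6, a chromodomain subunit, was at 146 and 42.7 CPM, 3.42-fold lower (3.23 to 3.63), and PCGF3, a subunit of variant PRC1, at 69.4 and 25.6 CPM, 2.71-fold lower (2.51 to 2.93). Among 10 genes listed as opposing Polycomb, 0 stood above and 1 below, both under the shares over all genes. The 1 below was BAP1, the deubiquitinase of histone H2A, at 29.4 and 11.4 CPM, 2.59-fold lower (2.30 to 2.91). KDM6A, an H3 lysine 27 demethylase, was at 98.6 and 94.6 CPM. NSD2, an H3 lysine 36 methyltransferase, was the 1 gene of that list past 1.5-fold in S in each line, with 2.40 (2.15 to 2.69) and 2.47 (2.14 to 2.85).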

How the data were processed

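Single-cell RNA-Seq matrices of 2 lines, 1 library each, were analysed. The submitters' processing notes name GRCh38 and Cell Ranger 6.0. In Seurat, the authors filtered cells on genes, reads, hemoglobin, ribosomal and mitochondrial percentages and doublet score. They kept equally many cells per line and sampled the UMIs down to 1 shared mean before the count matrices were deposited. The depth before thinning, the gene annotation and the strand setting are not given in the sources used here. After thinning by the authors the totals were 35150013 and 35149989 UMIs, so 1 UMI was 0.0284 CPM and the floor of 3 UMIs 0.0853 CPM.

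Phases were called per library in Seurat 5.3.0 (R 4.3.3). Sums, Clopper-Pearson shares, Poisson levels and exact conditional ratio intervals were computed in Python 3.11.15 with numpy 2.4.6 and scipy 1.17.1, and TMM factors in edgeR 4.0.16. The ratio code was tested on simulated data. No doublet caller was run on the deposited cells. Thinning to a common depth used seed 7 and the 10th percentile of the shallower library. Calls used at least 10 UMIs and a fold of 1.5. With 1 library per line no p-value was computed. Pathway genes were named from up to 2 per list at each end of the line ratio and up to 2 with the highest S over G1, at 20 CPM or more, and the likeness genes were the 2 with the highest Pearson's r, for members and candidates at 20 CPM or more. A gene that this rule names is not reported here. UHRF2, EZH1, DNMT3L and the ETV1 split were given beside the members. The members and lists were chosen with earlier results of these data known. Spans and positions came from GENCODE 44 on GRCh38 and promoter windows from RefSeq.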

Additional observations from a re-analysis of the deposited data

How the results depend on the processing

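No paired analysis was possible because each line has 1 library. With a fold of 2 in place of 1.5, the members above the median gene between the lines numbered 1 and those below it 1, and 3 members in place of 6 were higher in G2M than in G1 in LNCaP_FGC. Relative to total UMIs in place of the median gene, 1 member stood at least 1.5-fold above and 5 below. Of 30 alternative values for the counts of members, these 5 moved and 25 stayed within 1.5 times. The 25 include the members below the median gene between the lines, which went from 2 to 3 under 2 settings. These were background genes with at least 100 UMIs and background genes with 1 UMI in each library, and both brought in UHRF1. Of 200 alternative values for single genes, 26 moved by more than their interval. They include all 10 line ratios with TMM factors and all 10 with median-of-ratios factors, which shift the median gene from a log2 ratio of -0.49 to between -0.02 and 0. With cells thinned to the common depth, S over G1 of UHRF1 in LNCaP_C4-2B moved from 17.5 to 27.7. The line ratio of UHRF1 moved from 0.482 to 0.412 under the same setting. With both libraries scored together, S over G1 of DNMT1 in LNCaP_C4-2B moved from 4.58 to 4.98. The limits are the single library per line, the thinning by the authors, and small counts of DNMT3B, TET1 and, in G1, UHRF1.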
